A study of Mus musculus with 12 samples.

Results

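Cholesterol is built by a chain of enzymes, and cells switch that chain on and off as a whole according to how much sterol their membranes hold. The 35 genes described here are the enzymes of this chain, the proteins that sense sterol, the genes that the liver X receptors (LXR) control, the enzyme Ch25h that turns cholesterol into an oxysterol, and 4 enzymes of fatty acid synthesis and use. The list was set by gene name, with earlier results of these data known. An array probe set that names 1 gene alone was available for 33 of the 35, out of 18193 genes measured, and none named Acat2 or Nr1h2.

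Total RNA came from cultures of mouse cerebellar granular neurons (CGNs), the most numerous neurons of the cerebellum, and was read on 12 arrays. The methods give cultures in triplicate, which is read here as 1 array per culture. Mice were of the B10.RIII strain, and the *Ifnb* deletion had been backcrossed to it. Cultures of Ifnb-/- pups, which lack the gene for interferon-β (IFN-β), and of wild-type Ifnb+/+ pups were left untreated or given 100 U/ml of recombinant IFN-β (rIFN-β) for 24 hr, with 3 cultures in each of the 4 groups. All cultures were lysed after 3 days, and the labels give pups of 7 days. According to the methods, wild-type litters could also carry 1 deleted copy, so the group written Ifnb+/+ may include Ifnb+/- pups. The deletion was present in every cell from conception. The sources used here do not say whether the 3 cultures of a group came from separate litters or preparations. The p-values therefore measure only the spread between these cultures. The lowest correlation between arrays of a group was 0.9975 in untreated Ifnb-/- cultures. It was 0.971 in untreated Ifnb+/+, 0.983 in treated Ifnb+/+ and 0.985 in treated Ifnb-/- cultures.

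The master switch of the sterol chain is SREBP-2, the product of Srebf2, a factor held in the endoplasmic reticulum with its escort SCAP. When sterol is low the pair leaves for the Golgi, the factor is cut free and enters the nucleus, and the genes of the chain are transcribed. When sterol is high the INSIG proteins hold the pair back, and LXR, activated by oxysterols, turns on export through Abca1 and Abcg1. Neurons make much of their own cholesterol early in life and later take up more of what astrocytes supply in particles that hold apolipoprotein E. Type I interferons change sterol metabolism in immune cells, and Ch25h is itself an interferon-stimulated gene in those cells.

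Promoter sequence in the RefSeq table used here (build GRCm38.p6, from 250 bases before to 50 bases after each start) covered 28 of the 35 genes. Sqle, Stard4, Scd2, Scd1, Fdps, Abcg1 and Fdft1 had no entry. The CCAAT box, bound by NF-Y, a partner of the SREBPs, was searched as CCAAT on both strands. It was found in 21 of the 28 genes (75%), including 14 of 15 synthesis genes and 7 of 13 others, against 41.1% of all 27025 genes in the table. Counted by promoter, it was in 37.4% of all 32851. The stretches below are from the genes called with rIFN-β that hold it, and they are shown because these genes rose together with rIFN-β. They run 5′ to 3′ on the gene's own strand, and capitals mark CCAAT or its complement ATTGG and, in Hmgcs1, also the sterol regulatory element.
Hmgcs1 (chr13:119690101-119690335, + strand): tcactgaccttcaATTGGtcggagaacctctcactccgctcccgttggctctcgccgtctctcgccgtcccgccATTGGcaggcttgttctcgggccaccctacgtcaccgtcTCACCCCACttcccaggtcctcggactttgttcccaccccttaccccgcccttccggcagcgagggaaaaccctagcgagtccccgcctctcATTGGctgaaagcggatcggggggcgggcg
Idi1 (chr13:8885536-8885605, + strand): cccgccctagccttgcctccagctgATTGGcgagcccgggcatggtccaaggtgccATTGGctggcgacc
Msmo1 (chr8:64733604-64733763, - strand): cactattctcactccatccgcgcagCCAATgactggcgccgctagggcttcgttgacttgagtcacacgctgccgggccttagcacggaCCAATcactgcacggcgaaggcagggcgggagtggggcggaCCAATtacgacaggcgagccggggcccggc
Hsd17b7 (chr1:169969206-169969395, - strand): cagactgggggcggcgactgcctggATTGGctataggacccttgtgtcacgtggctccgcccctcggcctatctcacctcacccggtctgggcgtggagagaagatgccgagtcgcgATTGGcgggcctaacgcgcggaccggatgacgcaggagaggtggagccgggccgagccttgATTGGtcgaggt
Sc5d (chr9:42264301-42264349, - strand): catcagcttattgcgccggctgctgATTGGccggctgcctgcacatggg
Acsl3 (chr1:78657785-78657824, + strand): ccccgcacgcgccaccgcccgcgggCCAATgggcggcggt

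The sterol regulatory element was searched as TCACNCCAC on both strands. It matched in 1 of the 28 genes, Hmgcs1, where it begins 137 bases before the start. The share was 1.44% of all genes in the table and 1.24% of all promoters. The interferon-stimulated response element, the binding site of the factors that type I interferons activate, was searched as GAAA, any 2 bases and GAAA again. It matched in Ebp alone of the 28 genes, against 3.99% of all genes in the table and 3.44% of all promoters. The LXR element, searched as AGGTCA repeated after any 4 bases, matched in 0 of 28 genes. Its share was 0.0148% of all genes in the table and 0.0152% of all promoters. Ch25h held none of the 4 motifs. A match is a description of the letters, and its absence from this window says nothing of the factors.

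Values are log2 intensities, so a difference of 1 is a doubling, and they are given in the order of replicates 1, 2 and 3. Each gene was read from its brightest probe set, so levels of different genes were not compared. Array medians lay between 4.33 and 4.42. The treatment was visible in Ifit1, a classical interferon-stimulated gene, which read 3.66 to 4.06 in untreated and 9.85 to 11.44 in treated Ifnb+/+ cultures, and 2.65 to 2.92 in untreated and 9.36 to 10.26 in treated Ifnb-/- cultures. Ifnb1 itself read between 2.48 and 3.06 on every array, near the lower end of the scale, and so did not check the genotype labels. Mean marker levels lay between 8.57 and 9.03 for granule neurons, 7.94 and 9.05 for astrocytes and Bergmann glia, 7.82 and 8.39 for meningeal fibroblasts, 6.01 and 6.97 for microglia, 5.79 and 6.49 for oligodendrocytes and 3.48 and 3.83 for endothelial cells and pericytes. These levels come from different probe sets and were not set against one another.

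One array stood apart from its group. In Ifnb-/- cultures with rIFN-β, replicate 2 had the lowest value of the 3 for 17 of 17 synthesis genes, with a median of -0.81 against the mean of the other 2 arrays. The same array had the highest value for 4 of 5 LXR genes (median 0.57). Its mean level of the 12 astrocyte and Bergmann glia markers was 9.05, while replicates 1 and 3 had 8.02 and 7.96. Replicate 2 also had the highest mean of 8 interferon-stimulated genes (8.77, 9.47 and 8.77). The same held for 10 oligodendrocyte markers (5.99, 6.41 and 5.99). It had the lowest mean of 11 granule neuron markers (9.03, 8.76 and 8.98). The part of glial RNA in the lower sterol values was not tested, and in a bulk culture fewer cells of a type and less RNA per cell cannot be told apart. Untreated Ifnb+/+ cultures were also spread: the median SD of the sterol genes was 0.346, against 0.0528 in untreated Ifnb-/- cultures. Their astrocyte markers had no common order, with replicate 1 the lowest in 6 and the highest in 5 of the 12. The astrocyte list means were 8.33, 7.94 and 8.26. Means of the early synthesis genes were 8.45, 8.15 and 8.31, and those of the later ones 8.15, 7.75 and 8.01. In these untreated Ifnb+/+ cultures, replicate 2 was thus lowest in the astrocyte mean and in both synthesis means. Calls that changed without treated Ifnb-/- replicate 2 or without untreated Ifnb+/+ replicate 2 are given with each comparison below. Treated Ifnb-/- replicate 2 was singled out by its values in these same genes, so calls gained without it are not separate support.

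**Figure D1:**
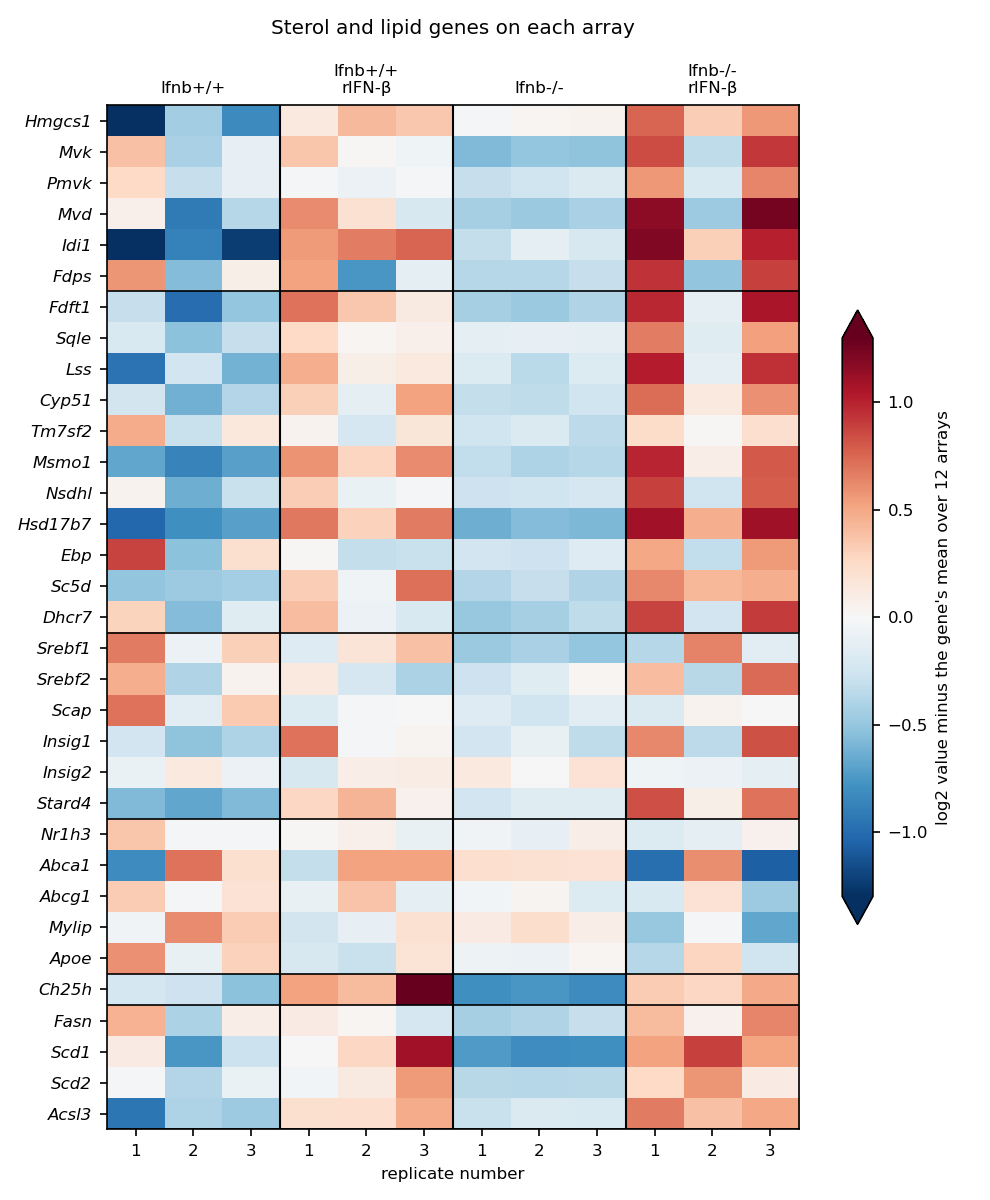
Heat map of the 33 measured genes (rows, in the order of their roles, separated by lines) on the 12 arrays (columns, by group and replicate number). Colour gives the log2 value minus the gene's mean over all arrays, with values beyond the ends of the scale drawn in the end colour. In Ifnb-/- cultures with rIFN-β, replicates 1 and 3 were redder than replicate 2 in all 17 synthesis genes.

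In Ifnb+/+ CGNs, rIFN-β raised 5 of the 17 synthesis genes measured, together with Stard4, Ch25h and Acsl3. Of the 33 genes, 8 rose and 0 fell at an adjusted p under 0.05 (limma, Benjamini-Hochberg over all 18193 genes), against 3.14% of all genes called in either direction and 1.78% called higher. The 5 synthesis genes were Hmgcs1, Idi1, Msmo1, Hsd17b7 and Sc5d. These calls use a spread estimated from all groups together. With the Ifnb+/+ groups fitted alone, 3 genes passed, Idi1, Msmo1 and Hsd17b7 (0.72% of all genes called). The unadjusted p was below 0.05 for 15 higher and 0 lower genes, with 8.81% of all genes on the higher side. The median log2 fold change of the 33 was 0.36, against -0.03 over all genes. In 13 of the 33, every treated array lay above every untreated one, which was so for 6.67% of all genes, and in 0 did every treated array lie below.

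The same treatment of Ifnb-/- CGNs raised 7 of the 33 genes and lowered 0, with 1.67% of all genes called in either direction and 0.929% called higher. These were Idi1, Msmo1, Hsd17b7, Sc5d, Ch25h, Scd1 and Acsl3, so that 6 genes passed in both genotypes. Hmgcs1 and Stard4 passed in Ifnb+/+ CGNs and Scd1 in Ifnb-/- CGNs, and the interaction of genotype and treatment passed for none of these 3. The unadjusted p was below 0.05 for 22 higher genes (9.16% of all genes) and 1 lower gene, Mylip. The median of the 33 was 0.72, against 0.07 over all genes. The treated arrays lay above the untreated ones without overlap in 18 genes and below in 2 (20.3% and 12.6% of all genes). The median SD of all genes was 0.0872 in untreated Ifnb-/- cultures, so the background of this count is high.

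Replicate 2 of the treated Ifnb-/- cultures was singled out for its low values in the synthesis genes. Leaving it out was therefore bound to raise their fold changes. Without it, 16 genes rose and 0 fell in Ifnb-/- CGNs, of which 13 were synthesis genes, with 1.1% of all genes then called and 0.753% called higher. Then Mvk, Pmvk, Mvd, Fdft1, Sqle, Lss, Cyp51, Nsdhl, Dhcr7 and Stard4 also passed, and Scd1 no longer did (log2 fold change 1.30, adjusted p = 0.0675). Leaving out instead replicate 1 or 3 of the treated cultures, or any 1 of the 3 untreated Ifnb-/- cultures, left 1 gene called, Hsd17b7 (0.456% to 0.731% of all genes). In Ifnb+/+ CGNs the count lay between 5 and 11 when 1 array was left out, with 5 without untreated Ifnb+/+ replicate 3 (1.32% of all genes), and Hmgcs1, Idi1, Msmo1, Hsd17b7 and Acsl3 passed in all 12 omissions. The 11 were found without treated Ifnb-/- replicate 2, where Fdft1, Lss and Cyp51 also passed (4.11% of all genes). Without untreated Ifnb+/+ replicate 2, 9 genes rose, Lss among them, and 1 fell, Scap (-0.59, adjusted p = 0.0199), but 16% of all genes were then called. That omission also let Cyp51, Fasn and Scd2 pass in Ifnb-/- CGNs, for 10 genes in all (2.54% of all genes).

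**Figure D2:**
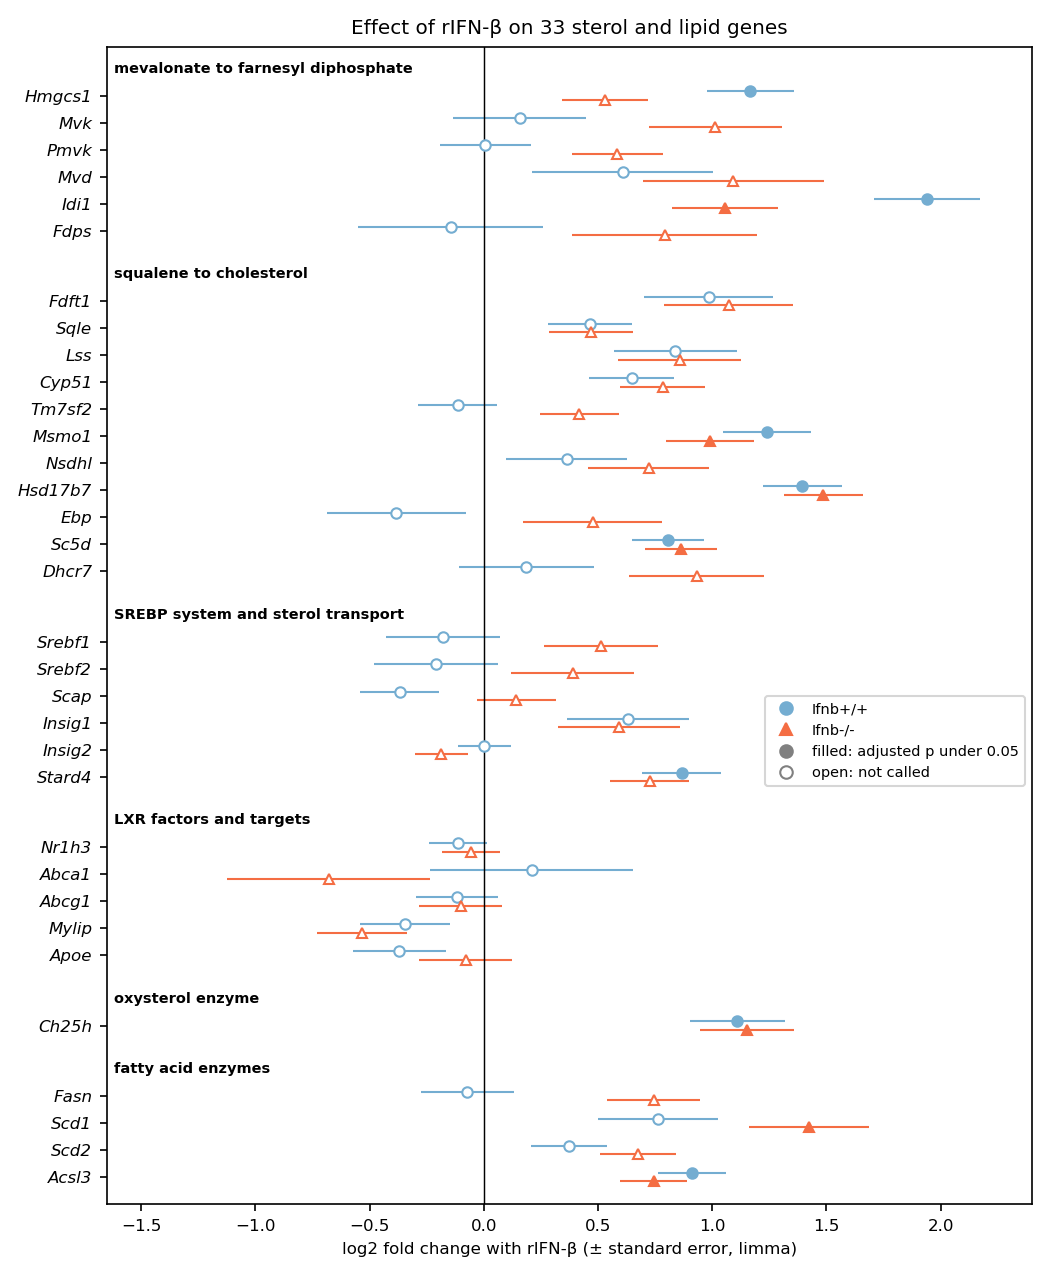
Log2 fold change with rIFN-β (horizontal axis, ± standard error from limma) of each of the 33 genes in Ifnb+/+ (circles) and Ifnb-/- CGNs (triangles), grouped by role, with filled symbols for an adjusted p under 0.05. The 8 and 7 filled symbols all lie to the right of 0, and the open symbols of the LXR group lie mostly to its left.

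The early enzymes turn acetyl units into farnesyl diphosphate, the branch point of sterols, ubiquinone and protein prenylation. Hmgcs1 makes HMG-CoA, the substrate of the rate-limiting step. It read 10.13, 11.00 and 10.62 in untreated Ifnb+/+ cultures and 11.58, 11.87 and 11.80 with rIFN-β. In Ifnb-/- cultures the gene read 11.42, 11.47 and 11.50 untreated and 12.21, 11.77 and 12.01 with rIFN-β. All treated arrays were above all untreated ones of the same genotype, and the untreated Ifnb-/- arrays were above the untreated Ifnb+/+ arrays. The rise with rIFN-β in Ifnb+/+ CGNs was 1.17 ± 0.19 on the log2 scale (standard error, adjusted p = 0.00531), a 2.25-fold rise, and the difference in Ifnb-/- CGNs was 0.53 ± 0.19 (adjusted p = 0.223).

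Idi1, which interconverts the isoprenoid building blocks, had the largest fold change of the 33 in Ifnb+/+ CGNs. Untreated Ifnb+/+ cultures read 7.71, 8.55 and 8.20, and treated ones 9.99, 10.10 and 10.18. Untreated Ifnb-/- cultures read 9.12, 9.31 and 9.22, and treated ones 10.63, 9.74 and 10.44. The groups did not overlap in either genotype. It rose by 1.94 ± 0.23 (3.84-fold, adjusted p = 0.000574) in Ifnb+/+ CGNs and, with all arrays, by 1.05 ± 0.23 (2.08-fold, adjusted p = 0.0447) in Ifnb-/- CGNs. Its call in Ifnb-/- CGNs was kept in 4 of 12 omissions of 1 array, with log2 fold changes of 0.87 to 1.32. With the mean of its probe sets that call was lost.

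Mvk and Mvd, the first and last enzymes that act on mevalonate, and Pmvk, which lies between them, did not pass with all arrays. With rIFN-β, Mvk read 7.59, 6.41 and 7.65 in Ifnb-/- cultures, against 6.16 to 6.23 untreated. Mvd read 8.87, 7.24 and 8.96, against 7.23 to 7.29, and Pmvk read 8.09, 7.33 and 8.16, against 7.23 to 7.33. Replicate 2 was near the untreated level in all 3 genes and the other 2 arrays were far above it. The log2 fold changes in Ifnb-/- CGNs were 1.01 ± 0.29 for Mvk (adjusted p = 0.119), 1.09 ± 0.40 for Mvd (adjusted p = 0.230) and 0.58 ± 0.20 for Pmvk (adjusted p = 0.200). Without replicate 2, which was singled out for such low values, the 3 genes passed, with 1.42, 1.65 and 0.85. Fdps, which makes farnesyl diphosphate, passed in no comparison and read 8.84 to 10.17 over the 6 Ifnb+/+ arrays and 9.09 to 10.54 over the 6 Ifnb-/- arrays.

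The later enzymes join 2 farnesyl units into squalene, close the rings and trim lanosterol to cholesterol. In this group of 11, 3 genes rose in each genotype, the same 3, and they act on the ring system late in the chain. Hsd17b7, a 3-ketosteroid reductase, read 6.58, 6.80 and 6.89 in untreated and 8.28, 7.89 and 8.27 in treated Ifnb+/+ cultures. Its values in Ifnb-/- cultures were 6.96, 7.03 and 7.02 untreated and 8.69, 8.07 and 8.70 with rIFN-β. The lowest treated array was above the highest untreated one in both genotypes. It rose by 1.39 ± 0.17 in Ifnb+/+ CGNs (2.63-fold, adjusted p = 0.000766) and by 1.49 ± 0.17 in Ifnb-/- CGNs (2.80-fold, adjusted p = 0.00104), and it was the 1 gene that passed in both genotypes in all 12 omissions of an array. With the mean of its probe sets, the call was lost in Ifnb+/+ CGNs and kept in Ifnb-/- CGNs. Its other probe sets, all of lower level, had 0.55, -0.05 and 0.91 in Ifnb+/+ and 1.05, 0.19 and 1.09 in Ifnb-/- CGNs.

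Msmo1, which oxidizes the methyl groups at carbon 4 of the ring, read 8.39, 8.19 and 8.36 in untreated and 9.65, 9.34 and 9.68 in treated Ifnb+/+ cultures. In Ifnb-/- cultures its values were 8.74, 8.66 and 8.69 untreated and 10.05, 9.15 and 9.86 with rIFN-β. No treated array overlapped the untreated ones. The rise was 1.24 ± 0.19 in Ifnb+/+ CGNs and 0.99 ± 0.19 in Ifnb-/- CGNs (adjusted p = 0.00401 and 0.0252). With the mean of its probe sets, the call in Ifnb-/- CGNs was lost.

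Sc5d, a sterol desaturase close to the end of the chain, was tight in untreated cultures, with 7.05, 7.09 and 7.12 in Ifnb+/+ and 7.19, 7.27 and 7.18 in Ifnb-/- cultures. With rIFN-β it read 7.89, 7.52 and 8.28 in Ifnb+/+ and 8.19, 8.00 and 8.04 in Ifnb-/- cultures. The treated values were above the untreated ones in both genotypes. It rose by 0.81 ± 0.16 (adjusted p = 0.0155) and 0.86 ± 0.16 (adjusted p = 0.0195) in turn.

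Fdft1, squalene synthase, is the first enzyme committed to sterols. It read 9.81, 9.12 and 9.60 in untreated and 10.81, 10.45 and 10.22 in treated Ifnb+/+ cultures, and 9.67, 9.62 and 9.71 in untreated and 11.08, 9.98 and 11.16 in treated Ifnb-/- cultures. Its groups did not overlap, but the spread between treated arrays was wide. It passed with rIFN-β averaged over the genotypes (1.03, adjusted p = 0.0105) and in neither genotype alone (0.99 ± 0.28 and 1.07 ± 0.28). With the mean of its probe sets, the call on the average was lost. 

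Cyp51, which removes the first methyl group of lanosterol, also passed on the average alone (0.72, adjusted p = 0.00740). It read 8.48, 8.10 and 8.33 untreated and 9.03, 8.59 and 9.24 treated in Ifnb+/+ cultures, and 8.40, 8.38 and 8.46 untreated and 9.44, 8.85 and 9.31 treated in Ifnb-/- cultures, with no overlap in either genotype. The same was true of Lss, which closes the rings (0.85, adjusted p = 0.0238). Its values were 6.14, 6.85 and 6.49 untreated and 7.58, 7.18 and 7.23 treated in Ifnb+/+ cultures, and 6.93, 6.75 and 6.92 untreated and 8.13, 6.98 and 8.05 treated in Ifnb-/- cultures. Cyp51 kept its call in all 12 omissions of an array and Lss in 6.

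With all 12 arrays, the other 5 enzymes of the later chain passed in no comparison. Sqle, squalene epoxidase, had 0.46 ± 0.18 in Ifnb+/+ and 0.47 ± 0.18 in Ifnb-/- CGNs (adjusted p = 0.195 and 0.272). Dhcr7, the last reductase, had 0.93 ± 0.29 in Ifnb-/- CGNs (adjusted p = 0.165), Nsdhl 0.72 ± 0.26 (adjusted p = 0.235) and Tm7sf2 0.42 ± 0.17 (adjusted p = 0.291). Dhcr7 read 9.48, 8.36 and 9.52 in treated Ifnb-/- cultures against 8.11 to 8.28 untreated, so again replicate 2 was close to the untreated arrays. Ebp, a sterol isomerase, spanned 7.32 to 8.73 in untreated Ifnb+/+ cultures, a wider range than its treated values of 7.54 to 7.87.

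Over the 17 synthesis genes measured, the fold change was positive in both genotypes in 14 and of opposite sign in 3, with medians of 0.61 in Ifnb+/+ and 0.86 in Ifnb-/- CGNs. The 3 were Fdps, Tm7sf2 and Ebp, each negative in Ifnb+/+ CGNs. These medians describe the list and were not tested.

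**Figure D3:**
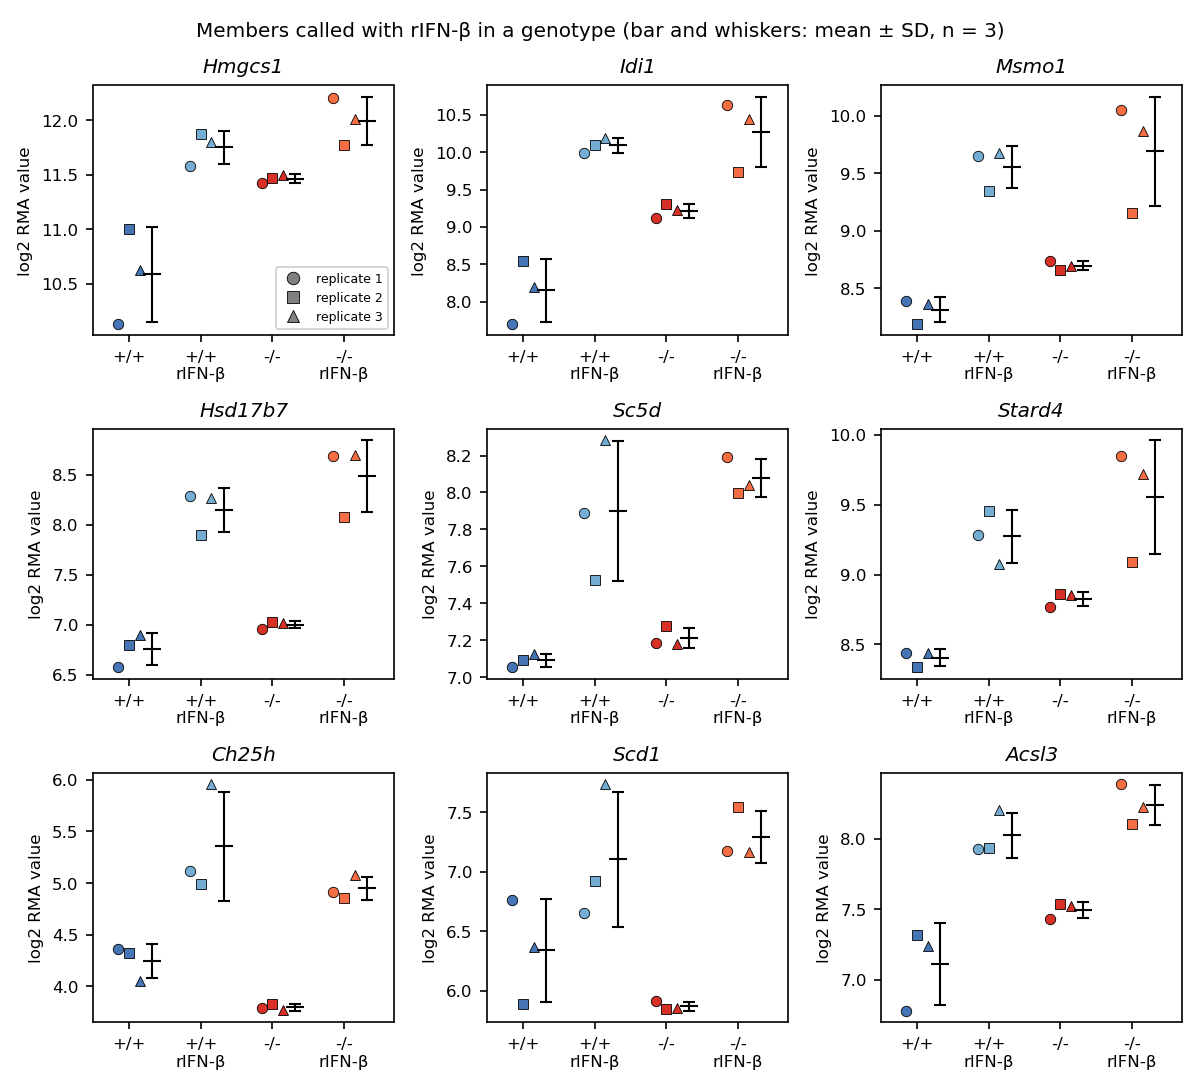
Log2 values of the 9 genes called with rIFN-β in at least 1 genotype, by group, with a symbol for each replicate number and bars for the mean ± SD (n = 3 cultures). Vertical axes differ between genes and do not start at 0. In Hmgcs1 and Idi1 the untreated Ifnb-/- arrays sit between the untreated and treated Ifnb+/+ arrays.

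Among the proteins that sense and carry sterol, Stard4, which moves cholesterol between membranes and is an SREBP target, rose in Ifnb+/+ CGNs. It read 8.44, 8.34 and 8.44 untreated and 9.29, 9.46 and 9.07 treated in Ifnb+/+ cultures, and 8.77, 8.86 and 8.85 untreated and 9.85, 9.09 and 9.72 treated in Ifnb-/- cultures. The treated arrays were above the untreated ones in both genotypes. The log2 fold change was 0.87 ± 0.17 in Ifnb+/+ CGNs and 0.73 ± 0.17 in Ifnb-/- CGNs (adjusted p = 0.0186 and 0.0632), and on the average of both it passed (0.80, adjusted p = 0.00244). Its other probe sets differed: one had 0.95 in Ifnb+/+ and 0.68 in Ifnb-/- CGNs, and the other 0.21 and -0.09. With the mean of its probe sets, the calls in Ifnb+/+ CGNs and on the average were lost.

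Srebf2 itself, the factor of the pathway, passed in no comparison. It read 9.22, 8.36 and 8.79 in untreated and 8.87, 8.53 and 8.34 in treated Ifnb+/+ cultures, and 8.48, 8.59 and 8.77 in untreated and 9.14, 8.39 and 9.48 in treated Ifnb-/- cultures. The groups overlapped throughout. Insig1, which retains the SCAP complex and is also a target of the pathway, had 0.63 ± 0.27 in Ifnb+/+ and 0.59 ± 0.27 in Ifnb-/- CGNs (adjusted p = 0.220 and 0.332). Its values were 8.09, 7.82 and 7.94 untreated and 9.04, 8.32 and 8.38 treated in Ifnb+/+ cultures, which did not overlap, while treated Ifnb-/- replicate 2 (8.00) lay below all 3 untreated Ifnb-/- arrays (8.02 to 8.25). Insig2, its paralog, stayed between 6.25 and 6.65 on all 12 arrays in the probe set used (mean 6.46). Another Insig2 probe set of similar level (mean 6.34) had -0.36 in Ifnb+/+ and -0.45 in Ifnb-/- CGNs. A further one (mean 5.69) had -0.0073 and -0.24. These fold changes of other probe sets were not adjusted or called. Srebf1, which encodes the factor of the fatty acid genes, and Scap also passed in no comparison with all 12 arrays, and their untreated values are given with the genotypes below.

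Fold changes of the LXR group were mostly below 0, and no gene of it passed with all 12 arrays. Of the 5 genes measured, the fold change with rIFN-β was negative in both genotypes in 4 and of opposite sign in 1, Abca1, with medians of -0.12 in Ifnb+/+ and -0.10 in Ifnb-/- CGNs. Mylip, which encodes the ubiquitin ligase IDOL and is an LXR target, read 6.86, 6.98 and 6.84 in untreated and 6.27, 6.74 and 6.08 in treated Ifnb-/- cultures. The treated arrays were below the untreated ones. The difference was -0.53 ± 0.20 (adjusted p = 0.239), and in Ifnb+/+ CGNs the values were 6.71, 7.37 and 7.08 untreated and 6.52, 6.65 and 6.96 treated, which overlapped. Averaged over the genotypes it had -0.44 (adjusted p = 0.103), and without treated Ifnb-/- replicate 2 it fell on average (-0.53, adjusted p = 0.0391).

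Abca1, the exporter that loads cholesterol onto apolipoproteins, read 8.53, 8.52 and 8.50 in untreated Ifnb-/- cultures and 7.33, 8.92 and 7.25 with rIFN-β. Replicates 1 and 3 were over 1 log2 unit lower than the untreated arrays, and replicate 2 was higher. The part of glial RNA in these values was not tested. In Ifnb+/+ cultures Abca1 read 7.50, 9.03 and 8.53 untreated and 8.01, 8.84 and 8.84 treated, so the groups overlapped. Apoe, the main apolipoprotein of astrocytes and microglia, read between 10.18 and 11.15 on all arrays, and Abcg1, a second exporter, between 6.11 and 6.95. Nr1h3, which encodes LXRα, lay at 3.94 to 4.13 in group means, under the level of 5 used below as a limit for dim genes.

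Ch25h hydroxylates cholesterol to 25-hydroxycholesterol, an oxysterol that holds SREBP-2 back and activates LXR. It read 4.36, 4.32 and 4.05 in untreated and 5.11, 4.99 and 5.96 in treated Ifnb+/+ cultures. In Ifnb-/- cultures it read 3.79, 3.83 and 3.77 untreated and 4.92, 4.86 and 5.08 treated. Treated and untreated arrays were apart in both genotypes, and the untreated Ifnb-/- arrays were below the untreated Ifnb+/+ arrays. The rise was 1.11 ± 0.21 in Ifnb+/+ CGNs (adjusted p = 0.0119). In Ifnb-/- CGNs it was 1.15 ± 0.21 (adjusted p = 0.0174). The gene was dim, with a mean of 4.59 over the 12 arrays, and has 1 probe set, so no second one could be compared. Microglial markers, whose cells are a known source of Ch25h, had lower mean levels with rIFN-β: 6.70 to 6.97 untreated and 6.01 to 6.34 treated in Ifnb+/+ cultures, and 6.36 to 6.50 untreated and 6.06 to 6.22 treated in Ifnb-/- cultures. Of the 15 markers measured, 7 fell and 0 rose in Ifnb+/+ CGNs (limma), with 1.36% of all genes called lower. In Ifnb-/- CGNs 0 were called (limma), with 5 lower at an unadjusted p below 0.05, against 5.44% of all genes. Fold changes of the 15 markers were negative in 13 and positive in 2 in Ifnb+/+ CGNs. In Ifnb-/- CGNs they were split, with 8 negative and 7 positive. The part of microglial RNA in the Ch25h values was not tested.

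The fatty acid enzymes had medians of 0.57 in Ifnb+/+ and 0.74 in Ifnb-/- CGNs. Acsl3, which activates long-chain fatty acids, rose by 0.91 ± 0.15 in Ifnb+/+ CGNs and by 0.74 ± 0.15 in Ifnb-/- CGNs (adjusted p = 0.00509 and 0.0280). It read 6.78, 7.31 and 7.24 untreated and 7.93, 7.94 and 8.21 treated in Ifnb+/+ cultures, and 7.43, 7.53 and 7.52 untreated and 8.39, 8.10 and 8.23 treated in Ifnb-/- cultures. The groups did not overlap, and replicate 2 of the treated Ifnb-/- cultures was not set apart in this gene as it was in the sterol enzymes.

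Scd1, a stearoyl-CoA desaturase, read 6.76, 5.89 and 6.37 untreated and 6.65, 6.92 and 7.74 treated in Ifnb+/+ cultures, which overlapped. In Ifnb-/- cultures it read 5.91, 5.84 and 5.85 untreated and 7.17, 7.55 and 7.17 treated, which did not. It rose by 1.42 ± 0.26 in Ifnb-/- CGNs (2.68-fold, adjusted p = 0.0200) and had 0.76 ± 0.26 in Ifnb+/+ CGNs (adjusted p = 0.142). The highest value of Scd1 among the treated cultures of each genotype came from the array with the highest level of the astrocyte list, replicate 3 in Ifnb+/+ and replicate 2 in Ifnb-/- cultures. That was also so for Scd2, the desaturase of the brain, which read 10.71, 10.87 and 11.30 in treated Ifnb+/+ and 11.01, 11.32 and 10.86 in treated Ifnb-/- cultures, against 10.36 to 10.73 and 10.38 to 10.39 untreated. The part of glial RNA in these values was not tested. Scd2 passed on the average of the genotypes alone (0.52, adjusted p = 0.0241). That call was kept in 7 of 12 omissions of an array and lost without treated Ifnb-/- replicate 2 (0.46, adjusted p = 0.0525). With the mean of its probe sets, Scd2 had -0.0098 on average (adjusted p = 0.990). Fasn, fatty acid synthase, read 9.60, 9.25 and 9.82 in treated and 8.75, 8.79 and 8.89 in untreated Ifnb-/- cultures, without overlap (0.74 ± 0.20, adjusted p = 0.0994), and its Ifnb+/+ groups overlapped.

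**Figure D4:**
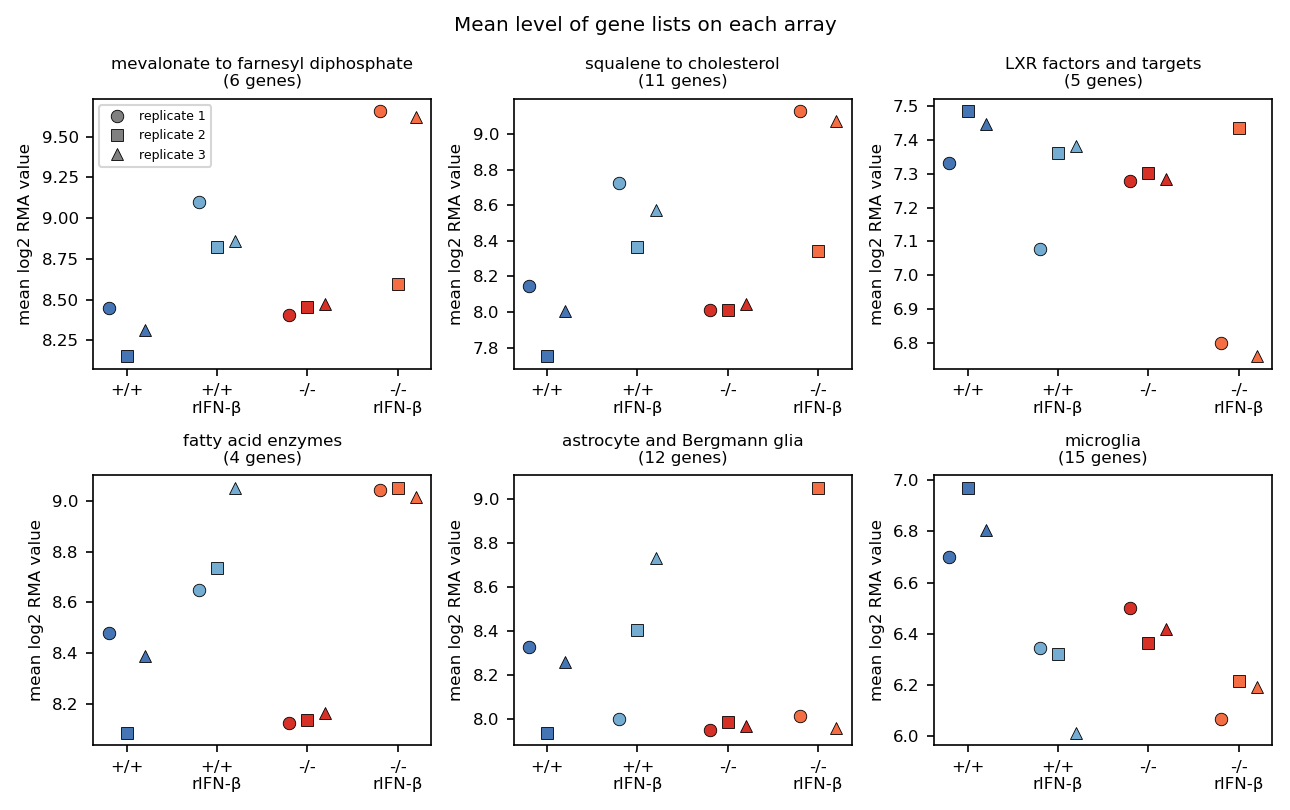
Mean log2 level of 4 role groups of sterol and lipid genes and of the astrocyte and microglial marker lists on each array, by group and with a symbol for each replicate number. Vertical axes differ between lists and do not start at 0. Treated Ifnb-/- replicate 2 is lowest of its group in the 2 synthesis lists and highest in the LXR list and the astrocyte list (9.05).

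With rIFN-β averaged over the genotypes, 13 of the 33 genes rose and 0 fell, against 4.84% of all genes called. Beside the 9 genes called in 1 genotype or both, these were Fdft1, Lss, Cyp51 and Scd2. The unadjusted p was below 0.05 for 20 higher genes (9.26% of all genes) and 1 lower gene, Mylip. Without treated Ifnb-/- replicate 2, the array singled out above by these genes, 19 genes rose and 1 fell, Mylip, with 3.91% of all genes called. Then Mvk, Pmvk, Mvd, Sqle, Nsdhl, Dhcr7 and Insig1 (0.79, adjusted p = 0.00608) also passed, and Scd2 did not. Without untreated Ifnb+/+ replicate 2 the 13 genes were called again, and the share of all genes called rose to 6.47%.

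The untreated genotypes asked whether loss of the gene for IFN-β alone shifts the pathway. No gene of the 33 passed (limma), with 0.115% of all genes called. Unadjusted p-values below 0.05 were found for 4 genes higher and 2 lower in Ifnb-/- CGNs, against 21.2% of all genes in either direction. By the methods' t-test, 3 of the 33 were under an unadjusted p of 0.05 with a change of 1.5-fold (2.25% of all genes). After Benjamini-Hochberg adjustment 0 were (0.033% of all genes). Hmgcs1 had the smallest p, with 0.88 ± 0.19 (adjusted p = 0.115), and Idi1 the next, with 1.07 ± 0.23 (adjusted p = 0.116). As given above, the arrays of the genotypes did not overlap in either gene. Stard4 had 0.42 ± 0.17 and Acsl3 0.38 ± 0.15 (adjusted p = 0.213 and 0.203).

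On the lower side, Srebf1 read 7.35, 6.60 and 6.98 in Ifnb+/+ and 6.19, 6.25 and 6.17 in Ifnb-/- cultures (-0.77 ± 0.25, adjusted p = 0.185). Scap read 9.07, 8.22 and 8.70 in Ifnb+/+ and 8.19, 8.11 and 8.22 in Ifnb-/- cultures (-0.49 ± 0.17, adjusted p = 0.194). The Srebf1 groups were apart, while the highest Scap array of Ifnb-/- and the lowest of Ifnb+/+ cultures both read 8.22. Over the 33 genes, the groups did not overlap in 8 that were higher and 3 that were lower, against 28.3% of all genes in either direction. The median was -0.13, against -0.09 over all genes. Replicate 3 of the untreated Ifnb+/+ cultures had the middle value in 28 of the 33 genes and in 69.1% of all genes.

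The count depended on untreated Ifnb+/+ replicate 2. Without it 7 genes passed, 3 higher and 4 lower, and so did 21.1% of all genes, a share close to that of the 33. They were Hmgcs1 (1.09, adjusted p = 0.0149), Idi1 (1.27, adjusted p = 0.0158), Acsl3 (0.49, adjusted p = 0.0465), Srebf1 (-0.96, adjusted p = 0.0270), Scap (-0.71, adjusted p = 0.0158), Tm7sf2 (-0.57, adjusted p = 0.0243) and Fasn (-0.65, adjusted p = 0.0287). Without treated Ifnb-/- replicate 2, Idi1 passed (adjusted p = 0.0462, 0.247% of all genes), and without any 1 of the other 10 arrays no gene did.

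Between the treated genotypes, 0 of the 33 genes passed, with 0.0605% of all genes called (limma). With an unadjusted p below 0.05 the count was 0 as well, against 4.94% of all genes. By the methods' t-test it was 0 at 1.5-fold (0.649% of all genes) and 0 after adjustment (0% of all genes). No gene of the 33 had groups without overlap, against 8.11% of all genes. The differences lay between -0.73 for Abca1 and 0.56, with a median of 0.22 against 0.03 over all genes, and 25 of the 33 were higher in Ifnb-/- CGNs. With 3 cultures a group, one of them low in these genes, this does not show that the treated genotypes were alike.

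The interaction asked whether rIFN-β acted differently in the genotypes. It passed for 0 of the 33 genes (limma), with 0.022% of all genes called, and was under an unadjusted p of 0.05 in 3 (15.3% of all genes). These 3 were Idi1 (-0.89 ± 0.33), Hmgcs1 (-0.64 ± 0.27) and Fasn (0.81 ± 0.29), each with an adjusted p of 0.323. Their share of the 33 was below that of all genes, so no difference in response is shown for them. Without untreated Ifnb+/+ replicate 2 the count was 4, with Fasn, Scap and Tm7sf2 higher and Hmgcs1 lower, and 6.8% of all genes were called. Averaged over the treatments, the genotypes differed in 0 of the 33 genes (limma, 0.231% of all genes called), with 5 higher and 2 lower genes of unadjusted p below 0.05 (9.07% of all genes). Without untreated Ifnb+/+ replicate 2, Hmgcs1 passed (0.67, adjusted p = 0.0414, 0.28% of all genes).

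A further 36 genes of sterol and lipid metabolism, of which 34 were measured, were read in the same way. Their median fold change with rIFN-β was -0.13 in Ifnb+/+ and 0.04 in Ifnb-/- CGNs. In Ifnb+/+ CGNs 1 rose, Elovl6, a fatty acid elongase (0.88 ± 0.21, adjusted p = 0.0455), and 1 fell, Plin2, a coat protein of lipid droplets (-1.07 ± 0.13, adjusted p = 0.000509). Over all genes, 1.78% were called higher and 1.36% lower. In Ifnb-/- CGNs 0 passed (limma, 1.67% of all genes called), with 6 higher and 3 lower genes of unadjusted p below 0.05 (9.16% and 5.44% of all genes). Plin2 read 8.25, 8.64 and 8.51 in untreated Ifnb+/+ cultures, 7.21, 7.47 and 7.52 with rIFN-β, and between 7.35 and 7.56 in all 6 Ifnb-/- cultures. Untreated Ifnb+/+ cultures alone were high. It was the 1 gene of the 34 that passed between the untreated genotypes (-0.94 ± 0.13, adjusted p = 0.0159), against 0.115% of all genes. Plin2 lies on the chromosome that also carries Ifnb1, and any part of that location in these values was not tested. With rIFN-β averaged over the genotypes, 2 rose, Elovl6 and Elovl5, another elongase (0.40), and 3 fell, Plin2, the transporter Abca7 (-0.50) and Mbtps1 (-0.29), the protease that makes the first cut in the SREBPs. Of all genes, 4.84% were called in this comparison.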

How the data were processed

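Cultures were hybridized to Affymetrix mouse expression arrays. According to the methods, the authors applied quantile normalization and RMA in Arraystar and deposited log2 intensities of 45037 probe sets, which were used as they stand. Probe sets were named from the platform annotation. Those naming 1 gene (34945) were used, and those naming several (932) or none (9160) were left out. A gene with more than 1 probe set was read from the one whose mean over the 12 arrays was highest. Of the 33 genes, 13 have 1 probe set and 20 several.

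The 4 group means were fitted with limma 3.58.1 in R 4.3.3 (8 residual degrees of freedom), and 7 contrasts were tested, each adjusted by Benjamini-Hochberg over 18193 genes. A gene was called at an adjusted p under 0.05. The fit was tried on simulated data in which each gene had the same SD in all 4 groups and its values were independent. The groups here differ in spread, so that trial does not test the calls made on these data. The number of arrays limits the precision.

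Genes, roles and lists were chosen with earlier results of these data known. By rule, fold changes are given for genes under an unadjusted p of 0.05, and values per array for called genes, for up to 3 genes per role with the smallest p, and for Srebf2 and Ch25h. Of the other lipid genes those called are named. Genes given beyond this rule, such as Mvd, Pmvk, Dhcr7 and Fasn, were chosen after their values were seen.

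Alternatives averaged the probe sets of a gene, dropped genes with means under 5, renormalized or centred the arrays, weighted them, changed the variance model, fitted the compared groups alone, blocked on the replicate number, used the methods' t-test, or left out each array. Leaving out 2 arrays together was added after seeing the data.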

Additional observations from a re-analysis of the deposited data

How the results depend on the processing

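Of the 33 genes, the numbers called for the untreated genotypes, rIFN-β in Ifnb+/+, rIFN-β in Ifnb-/-, the treated genotypes, the interaction, rIFN-β averaged and genotype averaged were 0, 8, 7, 0, 0, 13 and 0. With array weights, whose fit stopped before it converged, they were 22, 19, 27, 1, 16, 24 and 16, and 2.12% to 59.8% of all genes were called. With only the compared groups, rIFN-β called 3 in Ifnb+/+ and 12 in Ifnb-/- (0.72% and 7.01% of all genes). The methods' t-test at 1.5-fold called 3 untreated and 12 for rIFN-β in Ifnb-/- (2.25% and 4.17% of all genes). With Benjamini-Hochberg adjustment it called 3 in Ifnb-/- (1.84% of all genes). In Ifnb+/+ it called 0 of all 18193 genes, so the 0 there is not particular to these genes. Without untreated Ifnb+/+ replicate 1 and treated Ifnb-/- replicate 2 together, an alternative chosen after seeing the data, 1 was called untreated (0.214% of all genes). Then 24 were called for rIFN-β in Ifnb-/- (5.3%), 1 between the treated genotypes (0.198%), 23 for rIFN-β averaged (7.55%) and 2 for genotype averaged (0.544%). Leaving out 1 array gave 0 to 7, 5 to 11, 1 to 16, 0 to 0, 0 to 4, 11 to 20 and 0 to 1 in the order above. Beside the arrays named in the report, untreated Ifnb+/+ replicate 1 moved rIFN-β in Ifnb-/- to 11 (3.88% of all genes). Untreated Ifnb+/+ replicate 2 moved the interaction to 4 (6.8%) and genotype averaged to 1 (0.28%). Scd2 reversed with the mean of its probe sets, to -0.20 in Ifnb+/+ (adjusted p = 0.765) and -0.0098 on average (adjusted p = 0.990). The causes were not tested. Of 1628 single-gene results under the alternatives, 1410 kept their direction and side of the threshold, 74 became weaker, 142 stronger and 2 reversed. Whether the replicate numbers pair the samples was not settled. Of 18 same-numbered pairs, 5 correlated above 0.1, with values from -0.50 to 0.43. Of 36 best matches between groups, 24 were of the same number. With the replicate number as a block, rIFN-β called 10 genes in Ifnb+/+ and 7 in Ifnb-/-, and 14 on average (4.66%, 1.46% and 5.3% of all genes). Signal over background limits Ch25h and Nr1h3: with dim genes (mean under 5) left out, rIFN-β called 7 in Ifnb+/+ and 6 in Ifnb-/-. Of all genes kept, 4.61% and 2.56% were then called.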

Other observations

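The probe sets of Abca1 that were not used had lower levels than the one in the report, and their fold changes with rIFN-β in Ifnb-/- CGNs were -1.31 and -1.56, against -0.68 for the one used. In Ifnb+/+ CGNs they were -0.44, -0.69 and 0.21 in the same order. These values were not adjusted or called. Of the 9 genes called with rIFN-β in a genotype, 8 had another probe set, and these had positive fold changes in both genotypes except for 1 of the 3 of Hsd17b7 in Ifnb+/+ and 1 of the 2 of Stard4 in Ifnb-/- CGNs.

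The spread of the sterol genes differed between groups in another way than that of all genes. The median SD was 0.346 in untreated Ifnb+/+, 0.222 in treated Ifnb+/+, 0.0528 in untreated Ifnb-/- and 0.407 in treated Ifnb-/- cultures, while over all genes it was 0.201, 0.171, 0.0872 and 0.154 in the same order. In treated Ifnb-/- cultures the sterol genes thus had the widest spread of the 4 groups and all genes had their second narrowest.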
